A study of Mus musculus with 2 samples.

Results

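Marker genes of resting and activated cardiac fibroblasts were examined in mouse hearts 3 days after myocardial infarction. The list held 32 genes, and a gene was measured by every probe set annotated to its symbol alone. Of these, 31 genes were found, out of 18193 genes on the array, with 67 probe sets between them. The gene C7 had no such probe set. The sham group and the infarct group were both male C57BL/6J mice, 10 weeks old. In the infarct group the left anterior descending coronary artery was ligated permanently under anaesthesia. The sham group had the surgery but kept an unligated artery. RNA of 3 whole hearts was mixed in each group and hybridised to 1 array, so the data consist of 2 arrays, with infarcted and remote muscle together. With 1 array per group, nothing could be tested, the spread between mice is unknown, and each difference compares a single infarct pool with a single sham pool.

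Fibroblasts maintain the connective tissue of the heart between the muscle cells. In the healthy heart they rest, divide little and secrete a basal matrix and its modulators. When muscle dies they proliferate, lose much of the resting programme and become matrix-secreting, contractile myofibroblasts, which later settle in the scar. Surface receptors and the lineage factor TCF21 mark fibroblasts in general, whereas other genes are used to tell the resting from the activated state. Accordingly, the measured genes were sorted by their known role into 6 identity markers, 9 resting markers, 9 activation markers and 7 further stromal genes. The genes and classes were chosen with earlier results of these arrays known. In tissue RNA, fewer cells of a type and less RNA per cell cannot be told apart.

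Activation markers were mostly higher in the infarct pool and resting markers mostly lower. On the log2 scale, the median difference (infarct minus sham) was 0.94 over the activation markers and -0.39 over the resting markers, against 0.00 over the 11961 genes bright enough to be compared. By their brightest probe sets, 7 of the 9 activation markers lay above 0, a place shared by 49.5% of all genes. Below 0 lay 7 of the 9 resting markers, and 49.8% of all genes. At a difference of 1 (2-fold), 6 of the 31 genes were higher, while 3.73% of all genes were. These were Meox1, Ckap4, Cilp and Cthrc1 among the activation markers, the identity marker Thy1 and the stromal gene Dclk1. Only Scara5, a resting marker, was at least 2-fold lower, as were 1.26% of all genes. At 1.4, the threshold of the study, Meox1 and Ckap4 were higher (2 markers, against 1.49% of all genes) and Scara5 was lower (0.284% of all genes). At 0.6, about 1.5-fold, 8 markers were higher (9.94% of all genes) and 4 lower (5.91% of all genes). A gene was called bright enough if its brightest probe set reached the median of an array, and all 31 genes did so on both arrays. At its brightest probe set, none of the 31 markers was therefore dim in either pool.

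**Figure D1:**
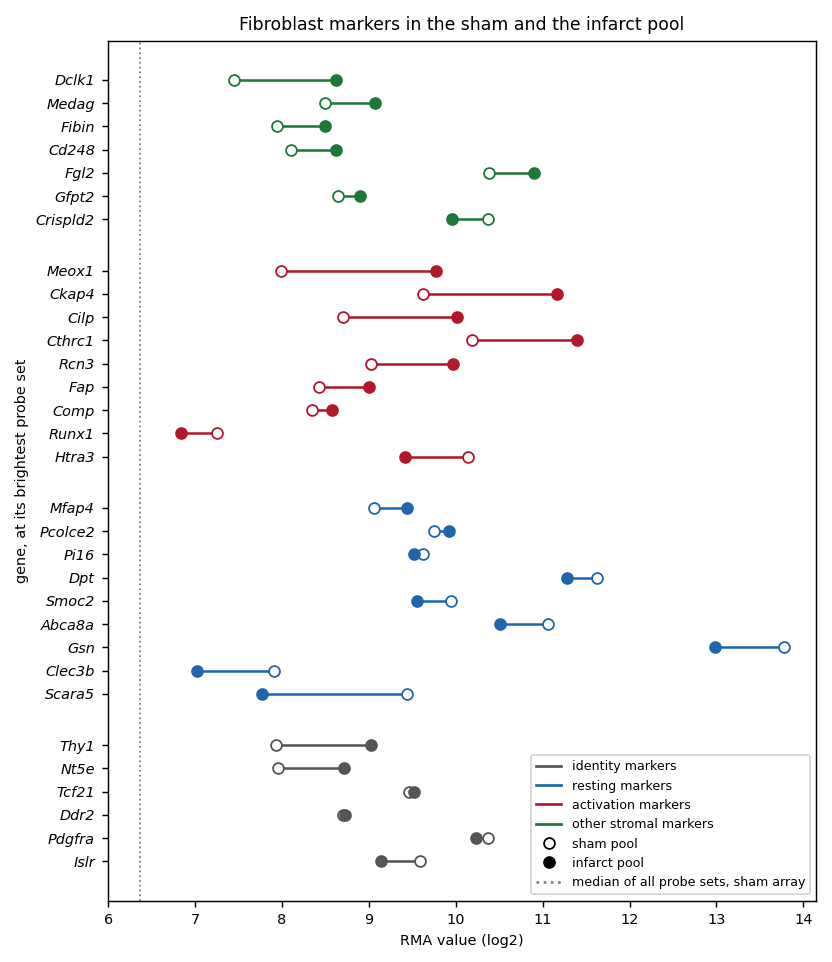
RMA values (log2) of the 31 fibroblast markers at their brightest probe set, with sham as open circles and infarct as filled circles, 1 array per pool and no error bars. Among the activation markers (red) the filled circle lies to the right for 7 of 9 genes, and among the resting markers (blue) it lies to the left for 7 of 9 genes.

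The activation markers spread from 1.78 to -0.72. Meox1, which encodes a homeobox transcription factor of activated fibroblasts, had a value of 7.99 in the sham hearts and 9.77 in the infarcted hearts. Its difference of 1.78 (3.43-fold) was the highest of all the markers and ranked 90th among all genes compared. Cilp encodes cartilage intermediate layer protein, a matrix protein that binds TGF-β. It had a value of 8.70 in the sham hearts and of 10.01 in the infarcted hearts, a difference of 1.31 (2.48-fold). Cthrc1, a secreted collagen triple helix repeat protein, stood at 10.19 in the sham hearts and 11.39 in the infarcted hearts, or 1.20 apart (2.30-fold). Meox1, Cilp and Cthrc1 each rest on a single probe set.

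Both activation markers whose proteins reside in the endoplasmic reticulum, where collagen is folded, had higher values in the infarct pool. Ckap4, a membrane protein of the rough endoplasmic reticulum present in many cell types, was 9.62 in the sham hearts and 11.17 in the infarcted hearts (difference 1.55, 2.93-fold). All 4 probe sets of Ckap4 were more than 2-fold higher, with differences between 1.12 and 1.68. Rcn3, a calcium-binding protein of the secretory pathway, was 9.02 in the sham hearts and 9.97 in the infarcted hearts. Its difference of 0.94 (1.92-fold) ranked 525th among all genes, just short of 2-fold.

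The remaining activation markers differed less or were lower. Fap, the membrane protease fibroblast activation protein, was 8.43 in the sham hearts and 8.998 in the infarcted hearts (difference 0.57, 1.48-fold). Comp, cartilage oligomeric matrix protein and a marker of mature scar fibroblasts, was 8.34 and 8.57, and its difference of 0.23 was negative once the arrays were centred on housekeeping genes. Htra3, a secreted serine protease, was lower, with 10.14 in the sham hearts and 9.42 in the infarcted hearts (difference -0.72, 1.65-fold lower). A second bright probe set of Htra3 gave -0.54, and a dim one gave 0.09. Its difference was 440th from the bottom of all genes. The class of Htra3 is uncertain, since resting fibroblasts may express it as well. With Htra3 counted as a resting marker, a choice made after its values were seen, the activation median was 1.07 and the resting median -0.47.

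The values of Runx1, a transcription factor of activated fibroblasts and of blood cells, depended on the probe set. Its brightest probe set was 7.25 in the sham hearts and 6.84 in the infarcted hearts, a difference of -0.41. Another probe set was 6.10 in the sham hearts and 7.14 in the infarcted hearts (difference 1.04), and 2 more gave 0.94 and 0.95, the latter dim on both arrays. The last 2 gave 0.17 and -0.13. Bright probe sets of Runx1 therefore lay on both sides of 0, and a direction for the gene cannot be given. The mean over its probe sets was 0.43.

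Among the resting markers, the largest difference was that of Scara5, a scavenger receptor that takes up ferritin. Scara5 had a value of 9.44 in the sham hearts and 7.76 in the infarcted hearts, so that it was 3.19-fold lower (difference -1.67). Only 11 of the 11961 genes compared had a lower difference, although a dim second probe set of Scara5 gave just -0.29. Clec3b, which encodes the plasminogen-binding protein tetranectin, followed with 7.91 in the sham hearts and 7.02 in the infarcted hearts (difference -0.89, 1.86-fold lower). Gsn encodes gelsolin, an actin-severing protein that muscle and other cells make too. It was 13.78 in the sham hearts and 12.99 in the infarcted hearts (difference -0.79), and all 4 bright probe sets of Gsn lay between -0.84 and -0.71.

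Smaller differences of the same sign were found for 4 further resting markers. Abca8a, a membrane transporter of the ABC family, was 11.06 in the sham hearts and 10.50 in the infarcted hearts, a difference of -0.55. Smoc2, a calcium-binding matricellular protein, was 9.94 and 9.55 (difference -0.39, and -0.18 by its other probe set). Dpt, which encodes dermatopontin, a small matrix protein that binds decorin, was 11.62 and 11.27 (difference -0.35). Pi16, a peptidase inhibitor that marks adventitial fibroblasts, was nearly level at 9.62 and 9.52. Its difference of -0.10 changed sign when the arrays were centred on the hybridisation controls, and a dim second probe set gave 0.25. By contrast, Mfap4, a microfibril-associated glycoprotein, was higher, at 9.06 in the sham hearts and 9.44 in the infarcted hearts (difference 0.38). Pcolce2, an enhancer of procollagen C-proteinase, was 9.74 and 9.92, and its difference of 0.18 was negative with housekeeping genes as the zero. The resting markers thus lay on both sides of 0, with Scara5 apart from the rest.

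**Figure D2:**
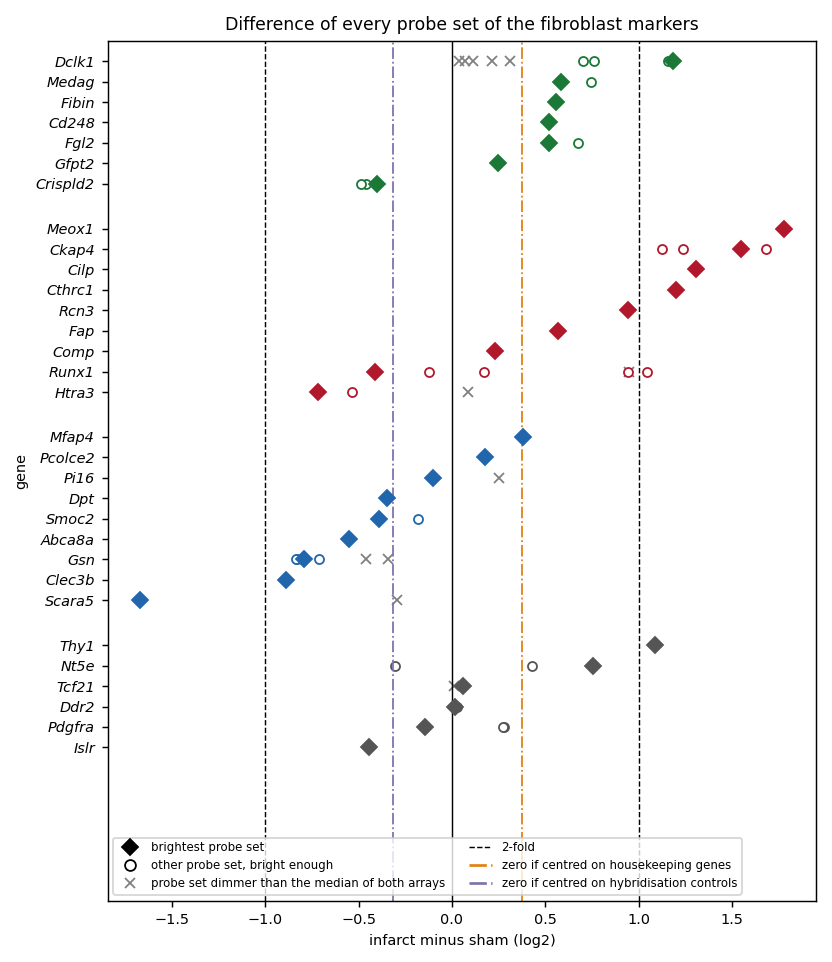
Difference (infarct minus sham, log2) of each of the 67 probe sets, with the brightest probe set of a gene as a diamond, other bright probe sets as circles and dim ones as grey crosses. Dashed lines mark 2-fold and dash-dotted lines show where 0 would lie if the arrays were centred on housekeeping genes (0.38) or on hybridisation controls (-0.32). The probe sets of Runx1 run from -0.41 to 1.04, while all 4 of Ckap4 exceed 1.

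The identity markers divided. Pdgfra, the platelet-derived growth factor receptor α used most often to define cardiac fibroblasts, was 10.37 in the sham hearts and 10.23 in the infarcted hearts. Tcf21 was 9.46 and 9.52, and the collagen receptor gene Ddr2 was 8.70 and 8.72. These 3 genes differed by -0.14, 0.06 and 0.02, at most 0.14 in size. None of the 3 signs held everywhere: the other probe sets of Pdgfra gave 0.28 and 0.27, Tcf21 and Ddr2 were negative with housekeeping genes as the zero, and Pdgfra was positive with the hybridisation controls.

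Thy1 and Nt5e are both genes of surface proteins held by a lipid anchor. Thy1 was 7.93 in the sham hearts and 9.02 in the infarcted hearts (difference 1.09, 2.13-fold). Nt5e, which encodes the enzyme CD73 that makes adenosine, was 7.96 and 8.71 (difference 0.76) by its brightest probe set, but its other probe sets gave 0.43 and -0.31, all of them bright, so that its direction is not settled. Islr, an immunoglobulin-domain protein of mesenchymal cells, was lower, at 9.58 in the sham hearts and 9.14 in the infarcted hearts (difference -0.44). The study had used Thy1 and Tcf21 as fibroblast markers and Islr and Nt5e as mesenchymal stem cell markers in cultured cells. In these pools the members of both pairs differed unequally, with Thy1 1.03 above Tcf21 in log2 difference, whatever the centring. Thy1 is also expressed by T lymphocytes. Of 10 T lymphocyte genes, 8 were measured and 4 were bright enough. Those 4 had a median difference of -0.14, and 0 were 2-fold higher (3.73% of all genes). Among them, Cd28 (-0.54) was dim in the infarct pool, so it was compared only because of its higher value in the sham pool. Left out as dim were Cd3d (0.08), Cd3g (-0.03), Cd2 (0.00) and Cd5 (-0.03). The median value of the 4 genes compared was 6.79 in the sham hearts, near the array median of 6.36. The part of T lymphocytes in the difference of Thy1 was not tested.

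Of the further stromal genes, 6 of 7 lay above 0 (49.5% of all genes), with a median of 0.52. With housekeeping genes as the zero, 5 of 7 did (18.0% of all genes), and the median was 0.14. Dclk1, a microtubule-associated kinase, was 7.44 in the sham hearts and 8.62 in the infarcted hearts (difference 1.18, 2.27-fold). The other bright probe sets of Dclk1 gave 1.16, 0.76 and 0.70, and 5 dim ones gave between 0.04 and 0.31. Medag, a cytoplasmic protein of fat-forming stroma, differed by 0.58 (8.49 in the sham hearts and 9.07 in the infarcted hearts), and Fibin, a secreted protein, by 0.56 (7.94 and 8.50). Cd248, the stromal surface glycoprotein endosialin, differed by 0.52 (8.10 and 8.62).

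Fgl2, a fibrinogen-like protein made by fibroblasts and by macrophages, was 10.38 in the sham hearts and 10.90 in the infarcted hearts (difference 0.52, and 0.68 by its second probe set). Gfpt2, an enzyme of hexosamine synthesis that supplies sugars for matrix glycans, was 8.64 and 8.89, and its difference of 0.25 was negative with housekeeping genes as the zero. Crispld2, a secreted cysteine-rich protein, was the only one of the 7 below 0, at 10.37 in the sham hearts and 9.96 in the infarcted hearts, with 3 probe sets between -0.49 and -0.40.

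The contrast of activation with resting markers does not depend on where the zero of the scale is set, since centring moves both by the same amount. The activation median exceeded the resting median by 1.33 (log2), or 2.52-fold. Of the 81 pairs made of 1 activation and 1 resting marker, the activation marker had the higher difference in 69 (85.2%). The other 12 pairs held Htra3 (6 pairs), whose class is uncertain, Runx1 (5 pairs), which lay below 0 only at some of its probe sets, or Comp (1 pair, with Mfap4). With Htra3 counted as resting, the activation marker was higher in 74 of 80 pairs. The widest pair was Meox1 against Scara5, with 3.45 between their differences (10.9-fold). Genes are not replicates, and the genes and classes were chosen with earlier results of these arrays known. The contrast and these counts therefore only describe the 2 arrays and give no independent support for a pattern.

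**Figure D3:**
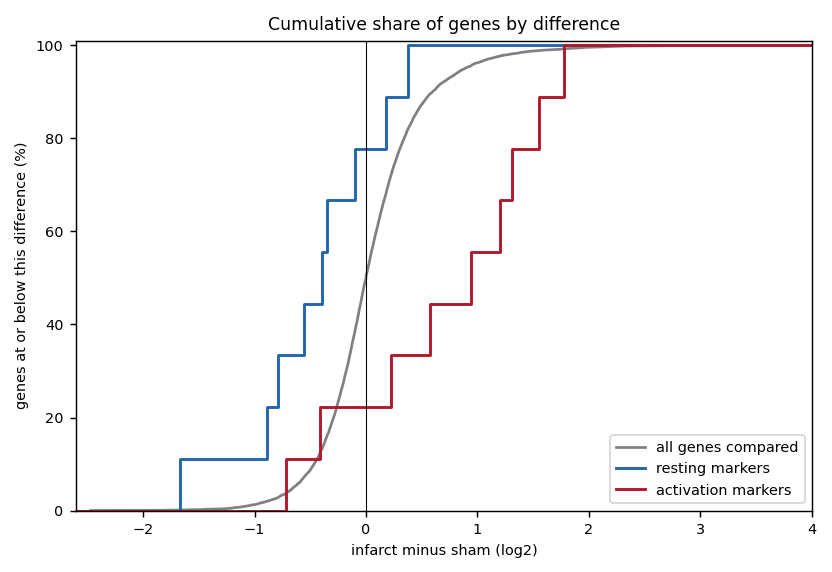
Cumulative share (%) of genes at or below a given difference (infarct minus sham, log2) for the 9 resting markers (blue), the 9 activation markers (red) and the 11961 genes compared (grey). The blue steps lie left of the grey curve, with a median of -0.39, and most red steps lie right of it, with a median of 0.94, while 2 activation markers lie below 0.

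Where zero lies did matter for single genes and for counts. Housekeeping genes, of which 10 were measured, averaged 0.38 above 0 (infarct minus sham). They ranged from -0.44 (Sdha) to 1.12 (Gusb), so they were not level between the pools and this zero is itself uncertain. The 18 probe sets for hybridisation controls, transcripts added to each sample, averaged -0.32 and ranged from -0.54 to -0.003. With the housekeeping genes as the zero, 6 activation markers lay above 0 (18.0% of all genes) and 8 resting markers below it (82.0% of all genes). Only Meox1 and Ckap4 were then 2-fold higher (1.59% of all genes), and 4 markers were 2-fold lower (5.43% of all genes), namely Scara5, Clec3b, Gsn and Htra3. With the hybridisation controls as the zero, 7 activation markers lay above 0 (81.9% of all genes) and 6 resting markers below it (18.1% of all genes). Then 8 markers were 2-fold higher (8.04% of all genes), with Rcn3 and, by its brightest probe set, Nt5e added, and Scara5 alone was 2-fold lower (0.334% of all genes). In all, 24 of the 31 genes kept 1 sign under the deposited values and all 3 kinds of control. The others were Tcf21, Ddr2, Pcolce2, Comp and Gfpt2, which were above 0 and changed sign with the housekeeping genes, and Pdgfra and Pi16, which were below 0 and changed with the hybridisation controls.

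Agreement between probe sets bounds what these values can show. Of the 31 genes, 16 had a single probe set and 12 had at least 2 that were bright. In 9 of the 12, all bright probe sets lay on 1 side of 0, the exceptions being Pdgfra, Nt5e and Runx1. The SD between bright probe sets of a gene was 0.35 over these 12 genes and 0.23 over 5190 genes of the array. It measures the probes and leaves out variation between mice.

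Promoter sequences were searched because several of these genes differed in the same direction. The TEAD motif was included because VGLL proteins are known to bind TEAD transcription factors. Whether TEAD factors act on these genes was not tested. RefSeq windows of the build GRCm38.p6, from 250 bases before to 50 after a transcription start, matched 22 of the 32 genes with 27 windows. Cd248, Clec3b, Comp, Cthrc1, Fap, Meox1, Mfap4, Scara5, Smoc2 and Thy1 were not among them. Both strands were searched for the TEAD motif (GGAATG), the AP-1 motif (TGANTCA), the RUNX motif (TGNGGT) and TATAAA, and no match overlapped that of another motif. The TEAD letters occurred in 4 of the 27 windows (14.8%), against 14.7% of all 32851 windows. The share was 11.1% against 7.81% for AP-1, 55.6% against 45.8% for RUNX, and 11.1% against 13.6% for TATAAA. All 4 windows with the TEAD letters are shown in part, since they belong to genes on both sides of 0: Rcn3 (0.94) and Fibin (0.56) were higher in the infarct pool, Abca8a (-0.55) was lower, and Runx1 was undecided. A stretch of Dclk1 follows, the only gene with 2 AP-1 matches. Each is written 5′ to 3′ on the strand of the gene, with the motif in capitals.
Rcn3, chr7:45092357-45092456, minus strand: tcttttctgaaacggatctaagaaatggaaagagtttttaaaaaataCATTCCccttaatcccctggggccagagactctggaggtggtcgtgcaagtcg
Fibin, chr2:110363122-110363221, minus strand: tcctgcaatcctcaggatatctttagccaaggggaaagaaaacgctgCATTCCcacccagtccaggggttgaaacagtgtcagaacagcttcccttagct
Abca8a, chr11:110095947-110096046, minus strand: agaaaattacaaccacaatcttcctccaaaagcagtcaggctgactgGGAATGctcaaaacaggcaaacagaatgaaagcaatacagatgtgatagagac
Runx1, chr16:92697332-92697431, minus strand: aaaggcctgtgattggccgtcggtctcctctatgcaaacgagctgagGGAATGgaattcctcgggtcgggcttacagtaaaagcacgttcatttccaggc
Dclk1, chr3:55461628-55461727, plus strand: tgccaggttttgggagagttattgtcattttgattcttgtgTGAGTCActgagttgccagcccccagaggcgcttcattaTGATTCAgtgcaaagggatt
Counted from the transcription start, the TEAD letters began at base -196 in Rcn3, -181 in Fibin, -62 in Abca8a and -55 in Runx1, where the stretch shown belongs to 1 of its start sites. The AP-1 letters of Dclk1 began at -59 and -20. These matches describe the letters of the windows and show no binding.

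Other genes of the fibroblast response were followed as lists. All 15 measured genes of the fibroblast matrix and scar lay above 0 (49.5% of all genes), with a median of 1.16. Of them, 10 were 2-fold higher (3.73% of all genes). Of 13 contractile genes of myofibroblasts, 6 were 2-fold higher (3.73% of all genes). All 13 lay above 0 (49.5% of all genes), with a median of 0.88. The median of the activation markers (0.94) lay between those of both lists, and that of the identity markers was 0.04.

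Markers of other cells also differed between the pools. All 16 macrophage markers lay above 0 (49.5% of all genes), and 6 were 2-fold higher (3.73% of all genes). Their median value was 9.74 in the sham hearts and 10.56 in the infarcted hearts. Of 9 measured neutrophil markers, 5 were bright enough, and 3 of these were 2-fold higher (median 1.11). Left out as dim were Mmp8 (1.05), Ngp (-0.12), Camp (0.00) and Ltf (-0.13). All 11 measured cell cycle genes were 2-fold higher (median 2.14), against 3.73% of all genes. Cxcr2, Bub1 and Aurkb were dim in the sham pool, so they were compared only because of their higher values in the infarct pool. The 11 endothelial markers had a median of 0.09 and the 11 cardiomyocyte markers one of -0.13. Cardiomyocyte markers were bright in both pools, with a median value of 14.53 in the sham hearts and 14.32 in the infarcted hearts. Mural cells of vessels (median -0.58 over 9 genes) and epicardial and mesothelial cells (median -0.47 over 9 genes) had markers as low as the resting fibroblast markers (-0.39). Runx1, Fgl2, Ckap4, Thy1, Nt5e and Gsn are expressed by some of these cells too, and the part of other cells in the differences of the fibroblast markers was not tested.

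**Figure D4:**
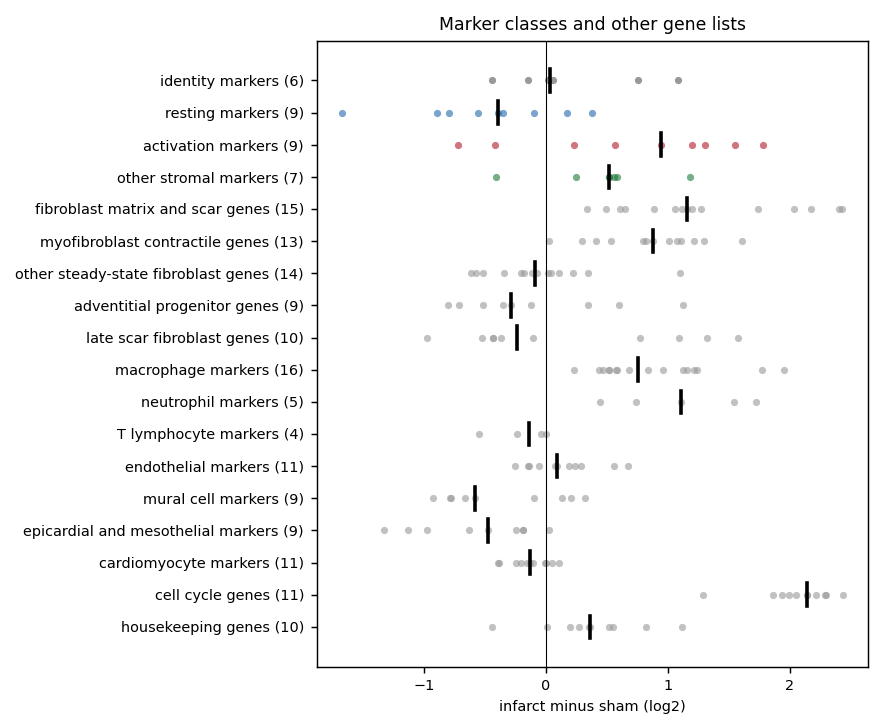
Difference (infarct minus sham, log2) of each gene in the marker classes (coloured) and in other gene lists (grey), 1 point per gene, with the number of genes in brackets and the median as a black bar. Activation markers (median 0.94) lie near the matrix (1.16) and contractile lists (0.88), and resting markers (-0.39) near the mural (-0.58) and epicardial lists (-0.47).

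**Figure D5:**
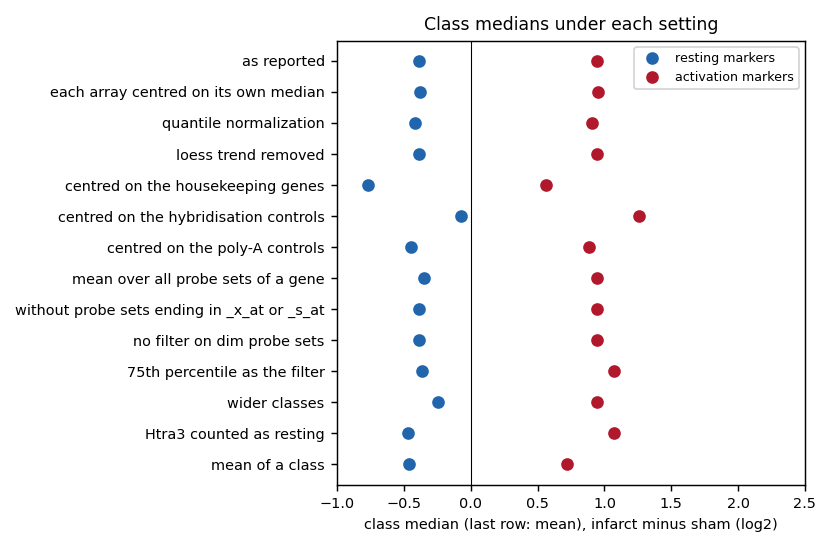
Median difference (infarct minus sham, log2) of the activation markers (red) and the resting markers (blue) as reported and under 13 other settings, the last of which takes the mean. The activation median runs from 0.57 to 1.26 and the resting median from -0.77 to -0.07, and the lowest activation value lies above the highest resting value.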

How the data were processed

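Total RNA of sham-operated and infarcted hearts, pooled from 3 mice per group, was hybridised by the authors to GeneChip Mouse Genome arrays. Per the labels, the deposited log2 values are RMA values (background correction, normalization between the arrays and 1 summary per probe set). The RMA software is not given in the sources used here. RMA gives both arrays nearly the same distribution, which hides a difference in total mRNA and can compress bright probe sets. The scale follows from the range of the values (2.95 to 14.90), and the column medians were 6.36 (sham) and 6.35 (infarct).

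Of 45101 probe sets, 34945 paired with 1 gene symbol in the annotation of the array, 932 with several and 9160 with none. A gene was represented by the probe set of highest mean over both arrays and compared if this was at or above the array median on either array, which left 11961 of 18193 genes. With 1 array per group, p-values and leaving out a sample were not possible. Every member was to be named at its brightest probe set, with all its probe sets where they disagreed in sign or by over 0.5. The members, their classes and the lists were chosen with earlier results of these arrays known, and the class of a gene follows general knowledge of its role. The array values have no genome build, and coordinates are those of the RefSeq promoter windows (GRCm38.p6). Alternatives were 6 scalings, other choices of probe set and filter (75th percentile, or none), wider classes, Htra3 counted as resting (added after the data were seen), means, and thresholds of 1.4 and 0.6. The procedure was tested on simulated data with planted shifts. That checks the calculation only, since the simulated data held no variation between mice. Python 3.11.15 with numpy 2.4.6, pandas 2.3.3, statsmodels 0.14.6 and matplotlib 3.10.9 was used.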

Additional observations from a re-analysis of the deposited data

How the results depend on the processing

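No paired analysis was possible because each group has 1 array, and for the same reason no array could be left out. The activation median (0.94) was 0.57 after centring on the housekeeping genes and 1.26 after centring on the hybridisation controls, and the resting median (-0.39) was -0.77 and -0.074. Their contrast (1.33) ran from 1.18 to 1.44 over the settings chosen at the start, and was 1.54 with Htra3 counted as resting, a setting added after the data were seen. The 6 markers at least 2-fold higher became 2 with the housekeeping genes as zero and 2 at a threshold of 1.4. The 1 marker at least 2-fold lower became 4 with the housekeeping genes as zero, 4 at a threshold of 0.6, and 0 with the mean over all probe sets. For all genes, 446 higher and 151 lower became 190 and 650 with the housekeeping genes, 962 and 40 with the hybridisation controls, 178 and 34 at 1.4, and 1189 and 707 at 0.6. Centring moved the median of all genes by -0.38 and 0.32. Of 308 values of single markers under 10 alternatives, 240 moved by less than the SD between probe sets (0.23) and 68 by more. No marker past 2-fold changed sign, while 8 of the 31 had another sign in some setting. These were the 7 named above for the controls, of which Ddr2 also changed with quantile normalization and the poly-A controls and Pdgfra and Pi16 with the mean over probe sets, and Runx1 with that mean. Precision is limited by there being 2 arrays.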

Other observations

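Fibroblast genes outside the list showed both directions as well. Of 14 genes of steady-state fibroblasts bright enough to be compared, 8 lay below 0, as did 49.8% of all genes (median -0.09). The lowest were Hsd11b1, an enzyme that activates glucocorticoids (-0.62), and Entpd2, an enzyme that degrades extracellular nucleotides (-0.57), while Col15a1, a basement membrane collagen gene, was 2-fold higher (1.10). Of 9 genes of adventitial progenitor cells, 6 lay below 0 (49.8% of all genes), with a median of -0.29. Among the 9, Efhd1 (0.60) was dim in the sham pool, so it was compared only because of its higher value in the infarct pool. The peptidase gene Dpp4 (-0.80) and the growth factor binding protein gene Igfbp6 (-0.71) were lowest, and the annexin gene Anxa3 was highest (1.12). With the hybridisation controls as the zero, the medians of both lists were positive, as was that of all genes (0.32).

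Genes of late scar fibroblasts, the group to which Comp belongs, also went both ways, with a median of -0.23. Above 0 lay 4 of 10 (49.5% of all genes), and 6 lay below it (49.8% of all genes). Thbs4, a thrombospondin gene (1.57), and Mfap5, a microfibril gene (1.32), were highest, and the carboxypeptidase-like gene Cpxm2 (-0.97) and the cartilage matrix gene Chad (-0.53) were lowest. With the hybridisation controls as the zero, 5 lay above 0 (81.9% of all genes) and the median was 0.09.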
